A study of Mus musculus with 22 samples.

Results

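The genes of antigen presentation by the major histocompatibility complex (MHC; H2 in the mouse) were followed through mammary epithelial cultures, the allografts grown from them, and primary mammary cancers with the cultures grown from those cancers. The members were all gene symbols of the first expression table that start with H2-, together with B2m, Tap1, Tap2, Tapbp, Psmb8, Psmb9, Psmb10, Cd74, Ciita and Nlrc5. This gave 54 of 23993 symbols, and 50 entries of 23490 symbols in a second table of the cancers. By class, the 54 were 3 classical class I genes, 28 nonclassical class I genes, 8 genes of class I assembly and peptide supply, 12 class II genes, 2 genes of the H2 region with no role in presentation (H2-Ke2 and H2-Ke6) and H2-K2, which was left unclassified. The rule works on gene names and uses no measured value, but it was set with earlier results of these data known.

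Each library is bulk polyadenylated RNA, and levels are FPKM, a fragment count normalised for the length of the transcript and the size of the library. Cells came from the mammary glands of nulliparous C57Bl/6 females, all carrying MMTV-Cre, which is driven by a mammary tumour virus promoter active in mammary epithelium, and 1 disrupted Trp53 allele (-/+). CYP19A1 cells also carried Tet-op-CYP19A1 with MMTV-rtTA, for inducible aromatase; whether an inducer was given is not stated in the labels. Brca1het cells carried 1 conditional Brca1 allele (Brca1fl11/WT) and Brca1hom cells carried both (Brca1fl11/fl11). Cultures were grown either by conditional reprogramming (CRC) or under mammary-optimized conditions (EpiC), called the media here, with 1 library per genotype and medium: number 1 is CYP19A1, number 2 Brca1het and number 3 Brca1hom. Allografts were raised in the mammary gland of NU (NCr)-Foxn1nu hosts. The 7 from CRC cells were CYP19A1 (6C), Brca1het (10B, 10C and 11C) and Brca1hom (1, 2 and 12), and the 3 from EpiC cells were CYP19A1 (7B) and Brca1het (4C and 5A). Nude hosts lack a thymus and so most T cells, but keep macrophages, dendritic cells, B cells and natural killer cells. The host's H2 haplotype is not given in the labels. The second table held 2 primary cancers and 1 CRC and 1 EpiC culture of each, all Brca1het. The labels do not tie the libraries of a group to different animals; the p-values then speak only to the variation among these samples, part of which may be technical.

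Class I molecules pair a heavy chain with beta-2 microglobulin (B2m) and show peptides from the cell's own proteins to CD8 T cells. The immunoproteasome subunits Psmb8, Psmb9 and Psmb10 cut such peptides, Tap1 and Tap2 carry them into the endoplasmic reticulum, Tapbp (tapasin) loads them, and Nlrc5 activates the genes. Class II molecules, made mostly by dendritic cells, macrophages and B cells, show peptides from engulfed material to CD4 T cells. Their alpha and beta chains (H2-A and H2-E) assemble around the invariant chain Cd74, H2-DM and H2-O edit the bound peptide, and Ciita activates the genes. Epithelium and tumour cells carry class I as a rule and acquire class II under interferon gamma.

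Per library, FPKM summed to 466441 to 825216 in the first table and 607519 to 1615930 in the second; read depth cannot be read from FPKM. EpiC culture 3 went against its label as an epithelial culture, with the epithelial markers Epcam at 0.208 and Krt8 at 0.275 FPKM, whereas Epcam lay at 253 to 454 in the other 5 cultures. EpiC allograft 4C stood apart in class II, as described with the values. In the allografts 7 epithelial markers summed to 43.9 to 905 FPKM, against 9642 to 15333 in the CRC cultures and 1724 and 1804 in EpiC cultures 1 and 2. The fibroblast markers summed to 26.9 to 48.7 FPKM in the CRC cultures, 3133 to 6181 in the EpiC cultures and 592.0 to 4769 in the allografts. Among members, 2 (H2-M10.4 and H2-M10.5) had a listed value of 0 in all 16 libraries of the first table, and 12 others never reached 1 FPKM. That left 40 members that reached 1 FPKM somewhere, and 33 whose mean over the 16 libraries was at least 1 FPKM, the level required for a test.

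Of 50 members found on the RefSeq gene table, 45 lie on chromosome 17, where the H2 region is, and promoters were available for 37 of 54 members, 40 promoters in all. Sequences are from RefSeq for the GRCm38.p6 build, whereas the submitters' processing notes name build mm9 for the expression tables, so the positions apply to GRCm38.p6 alone. Class II promoters are known for an X box, bound by the RFX complex, followed by a Y box, bound by NF-Y, on which CIITA assembles. The pair is shown because several class II genes were the members that moved most, although of the genes found with both boxes only H2-Eb1 was among those. Capitals mark the X core (AGNAAC) and the Y box (ATTGG, the reverse complement of CCAAT) in H2-Eb1 (chr17:34305769-34305818, plus strand), H2-Eb2 (chr17:34325536-34325585, plus strand), H2-Ob (chr17:34238811-34238858, plus strand), H2-Oa (chr17:34092296-34092346, plus strand) and H2-DMb1 (chr17:34153090-34153140, plus strand), and the Y box alone in H2-Aa (chr17:34287861-34287910, minus strand), where AGNAAC was not found.
H2-Eb1: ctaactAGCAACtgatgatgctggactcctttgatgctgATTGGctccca
H2-Eb2: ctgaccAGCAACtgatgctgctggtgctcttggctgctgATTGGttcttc
H2-Ob: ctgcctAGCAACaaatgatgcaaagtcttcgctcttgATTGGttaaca
H2-Oa: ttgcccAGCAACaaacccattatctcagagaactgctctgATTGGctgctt
H2-DMb1: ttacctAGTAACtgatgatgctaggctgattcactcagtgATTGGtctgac
H2-Aa: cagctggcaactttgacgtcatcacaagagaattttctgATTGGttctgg

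The pattern of AGNAAC followed by ATTGG at a distance of 15 to 45 bases, searched on the strand of the gene and chosen after the sequences had been seen, occurred in 0.8% of 32851 promoters and in 6 of 40 member promoters. These were the 5 class II genes shown with both boxes, of 8 class II members with a promoter, and H2-M10.4. Of those 5, only H2-Eb1 passed the test between allografts and cultures given with the class II values. H2-DMb1 did not pass, and H2-Eb2, H2-Oa and H2-Ob were too low to be tested. H2-Aa, H2-DMa and H2-DMb2 passed but held no such pair, and for Cd74 and H2-Ab1 no promoter was available. The distance from X core to Y box was 33 bases in H2-Eb1 and H2-Eb2, 34 in H2-DMb1 and H2-Oa and 31 in H2-Ob. Alone, the letters are common: CCAAT was present on either strand in 37.4% of all promoters and 34 of 40 member promoters, and AGNAAC in 48.1% and 23 of 40. A match describes letters only.

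For class I, the stretches shown are from promoters of the most abundant members and of H2-T22 and H2-T23, whose response differed between media. The response of H2-T10 and H2-T24 also differed, but no promoter was available for them, so their letters were not examined. Capitals mark GAAA, any pair of bases and GAAA again, on either strand, the letters of an interferon-stimulated response element, in B2m (chr2:122147536-122147569, plus strand), H2-T22 (chr17:36042912-36042945, minus strand) and H2-T23 (chr17:36032804-36032837, minus strand). They mark GGG, 5 bases of any kind and CC, the letters of an NF-kappaB site, and the Y box in H2-K1 (chr17:34000353-34000472, minus strand) and H2-D1 (chr17:35262909-35263028, plus strand).
B2m: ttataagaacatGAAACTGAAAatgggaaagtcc
H2-T22: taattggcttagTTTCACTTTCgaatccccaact
H2-T23: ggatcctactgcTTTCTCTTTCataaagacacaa
H2-K1: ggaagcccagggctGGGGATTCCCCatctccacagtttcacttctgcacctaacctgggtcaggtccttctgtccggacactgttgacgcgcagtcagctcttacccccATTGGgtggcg
H2-D1: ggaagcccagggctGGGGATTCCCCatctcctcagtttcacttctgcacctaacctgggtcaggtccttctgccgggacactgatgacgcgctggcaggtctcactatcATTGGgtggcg

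An exact match to the letters searched for the interferon-stimulated response element occurred in 3.4% of all promoters and in 3 of 40 member promoters, the 3 shown. Looser forms of the element were not searched, so no count is given for them. The NF-kappaB pattern is common, in 50.8% of all promoters and 20 of 40 of the members'. H2-K1 and H2-D1 were identical at 109 of 120 bases of these stretches, and how the authors' counting treated reads that fit several class I genes is not given in the sources used here. Tap1 and Psmb9 are read in opposite directions from a shared start region. The 225 bases between their starts (chr17:34187331-34187555, plus strand) are given because the pair did not move together, with CCAAT in capitals.
Tap1-Psmb9: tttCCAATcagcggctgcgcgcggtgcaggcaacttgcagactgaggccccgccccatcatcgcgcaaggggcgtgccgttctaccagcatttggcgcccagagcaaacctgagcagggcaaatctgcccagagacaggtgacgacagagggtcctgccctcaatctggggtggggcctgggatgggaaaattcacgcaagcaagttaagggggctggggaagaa

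Most class II genes were low in every culture and higher in every allograft. The 12 class II members summed to 15.4 to 24.5 FPKM in the CRC cultures and 11.0 to 23.9 in the EpiC cultures, against 358 to 2033 in the CRC allografts and 364.6 to 8081 in the EpiC allografts. In the comparison of the 10 allografts with the 6 cultures, with genotype and medium in the model (limma, Benjamini-Hochberg adjusted p under 0.05), 13 of 33 tested members rose and 0 fell, while 18.2% of all 12325 genes tested rose and 16.4% fell. The share of members that rose was above that background, and 17 had an unadjusted p under 0.05. Of the 13, 7 were among the 8 tested class II genes. The median log2 difference over the 33 members was 0.74, and 0.01 over all genes. Several class II genes reached the filter of 1 FPKM through the allografts alone, so their counts, medians and p-values, here and within each medium, describe the difference and are no support for it.

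Cd74, the invariant chain, was the most abundant class II member of the allografts. It stood at 1.04, 1.12 and 2.21 FPKM in CRC cultures 1, 2 and 3 and 5.43, 2.3 and 5.9 in EpiC cultures 1, 2 and 3. In the CRC allografts it was 201 to 1108 (median 589.8) FPKM, and in EpiC allografts 7B, 4C and 5A it was 248, 4237 and 348. No allograft overlapped with a culture, and the log2 difference was 7.56 (SE 0.55, adjusted p = 1.17e-07). H2-Aa, the alpha chain of I-A, stood at 0.379, 0.47 and 1.03 FPKM in CRC cultures 1, 2 and 3 and 0.429, 0.415 and 0.373 in EpiC cultures 1, 2 and 3. It was at 49.5 to 321 (median 107) FPKM in the CRC allografts and at 43.5, 1450.3 and 108 in EpiC allografts 7B, 4C and 5A. Here too the groups did not overlap, with a log2 difference of 6.70 (SE 0.64, adjusted p = 2.34e-06). H2-Ab1, its beta chain, was the class II gene with the highest level in CRC cultures, at 11.8, 9.04 and 9.26 FPKM in CRC cultures 1, 2 and 3 and 0.793, 1.76 and 0.985 in EpiC cultures 1, 2 and 3. CRC allografts held 42.2 to 268 (median 104) FPKM and EpiC allografts 7B, 4C and 5A 27, 1145 and 84.2, for a log2 difference of 4.42 (SE 0.74, adjusted p = 0.000453). H2-Eb1, the beta chain of I-E, was at 1.72, 1.01 and 3.45 FPKM in CRC cultures 1, 2 and 3 and 0.0258, 0.393 and 0 in EpiC cultures 1, 2 and 3. It reached 26.4 to 185 (median 59.2) FPKM in CRC allografts and 19.9, 780.4 and 37.3 in EpiC allografts 7B, 4C and 5A. The log2 difference of H2-Eb1 was 5.26 (SE 0.72, adjusted p = 8.46e-05), again without overlap.

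The genes that edit the bound peptide had smaller fitted differences. H2-DMa, the alpha chain of the H2-DM editor, was at 4.06, 0.822 and 0.903 FPKM in CRC cultures 1, 2 and 3 and 5.99, 3.31 and 5.74 in EpiC cultures 1, 2 and 3, and at 17 to 45.1 (median 33.7) FPKM in CRC and 8.91, 52.5 and 59.1 in EpiC allografts 7B, 4C and 5A. Its log2 difference was 3.08 (SE 0.43, adjusted p = 8.86e-05). H2-DMb2, one of the H2-DM beta chains, stood at 0.43, 0.137 and 0 FPKM in CRC cultures 1, 2 and 3 and 2.0, 0.152 and 0 in EpiC cultures 1, 2 and 3, with 1.43 to 8.24 (median 3.58) FPKM in CRC allografts and 1.39, 10.1 and 4.94 in the EpiC allografts. It rose by 2.02 (SE 0.39, adjusted p = 0.00125), although EpiC culture 1 lay above the lowest allografts. H2-DMb1, the other beta chain, did not pass the test: its level was already 1.33, 2.73 and 7.68 FPKM in CRC cultures 1, 2 and 3 and 2.88, 2.53 and 10.9 in EpiC cultures 1, 2 and 3, and 3.48 to 14.1 (median 6.05) FPKM in CRC and 1.76, 31.7 and 5.86 in EpiC allografts. The log2 difference of H2-DMb1 was 0.74 (SE 0.45, adjusted p = 0.213), and cultures and allografts overlapped. H2-Ob and H2-Oa, the chains of the H2-DO inhibitor, stayed at or under 2.23 and 0.807 FPKM in every library and H2-Eb2 at or under 0.103. Ciita, the class II activator, was at 0.0155, 0.00856 and 0 FPKM in CRC cultures 1, 2 and 3 and 0.0158, 0 and 0.0115 in EpiC cultures 1, 2 and 3. It was at 0.19 to 1.75 (median 0.433) FPKM in CRC allografts and 0.0575, 4.53 and 0.197 in EpiC allografts 7B, 4C and 5A, above all cultures but with a mean too low to be tested.

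**Figure D1:**
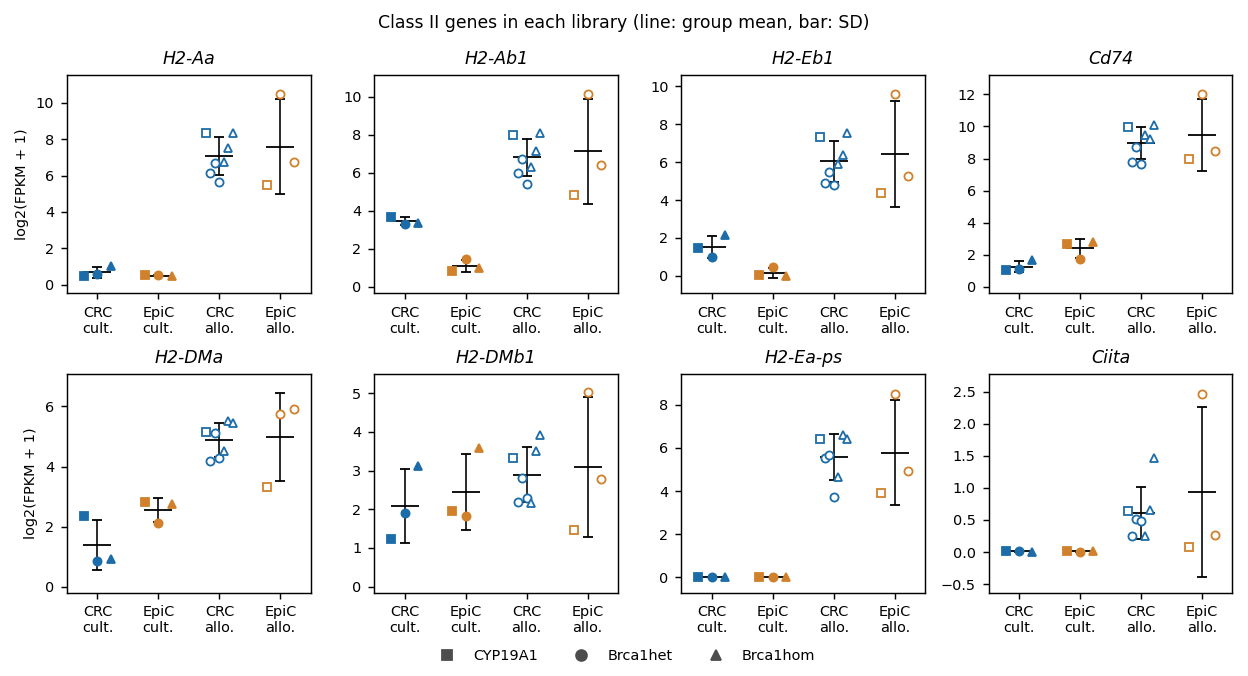
Levels of class II genes (FPKM, log scale) in each library of the first table, blue for CRC and orange for EpiC, filled symbols for cultures and open ones for allografts, with squares for CYP19A1, circles for Brca1het and triangles for Brca1hom; lines are means and bars SD. For Cd74, H2-Aa, H2-Ab1 and H2-Eb1 every allograft lies above every culture, and EpiC allograft 4C lies above the other allografts.

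H2-Ea-ps differed in kind from the rest. It is the alpha chain gene of I-E, annotated as a pseudogene because the b haplotype of C57BL/6 carries a promoter deletion and makes no I-E alpha chain; other haplotypes express the gene. It was listed at 0 FPKM in all 6 cultures, so no fold is given. The CRC allografts held 12.1 to 97.2 (median 50.9) FPKM and EpiC allografts 7B, 4C and 5A 13.8, 366 and 29.7. It passed the filter through the allografts alone, so its test is not given. Relative to H2-Aa in the same library it amounted to 22.5% to 64.5% in CRC allografts and 25.2% to 31.8% in EpiC allografts. All 10 allografts therefore had signal at this gene and no culture had a value above 0. Whether the transcripts came from the host or the grafted cells was not tested.

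Markers of other cell types moved with class II. All 13 macrophage markers rose in allografts, their sum going from 37.8 to 87.4 FPKM in cultures to 3829 to 13649 in allografts. Of those, Csf1r, the receptor for colony stimulating factor, was at 0.0514 to 3.46 FPKM in cultures and 80.9 to 410.0 in allografts. C1qa, a complement subunit made by macrophages, was at 0 to 0.324 in cultures and 481 to 2065 in allografts. The 8 dendritic cell markers summed to 0.372 to 1.62 FPKM in cultures and 4.88 to 51.6 in allografts, and the 2 of them that could be tested, Itgax and Clec10a, both rose; the defining marker Flt3 stayed at or under 0.646 FPKM. The 6 endothelial markers rose as well (6 of 6). T and NK cell markers summed to 3.49 to 27.2 FPKM in allografts, with Cd3e at most 2.29 and Ncr1 at most 4.09. The B cell markers summed to at most 2.55, with Cd79a at most 0.597. The part of these cells in the rise of class II was not tested. In bulk samples, fewer or more cells of a type and less or more RNA per cell cannot be told apart.

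Within each medium the same contrast gave a similar picture for class II. In CRC cells, 18 of 34 tested members were higher in allografts and 1 was lower, against 23.9% and 21.6% of 12261 genes (limma); the median log2 difference was 1.14 over the members and 0.03 over all genes. Class II accounted for 7 of the 18, with log2 differences of 7.82 (SE 0.38, adjusted p = 4.24e-07) for Cd74, 6.52 (SE 0.44, adjusted p = 3.27e-06) for H2-Aa, 4.66 (SE 0.40, adjusted p = 1.67e-05) for H2-Eb1 and 3.52 (SE 0.44, adjusted p = 0.000173) for H2-Ab1. In EpiC cells, 5 of 34 tested members rose, against 3.56% of 12136 genes, and 11 had an unadjusted p under 0.05. The median there was 0.64 over the members and 0.01 over all genes. All 5 were class II genes, namely Cd74 at 7.09 (SE 1.003, adjusted p = 0.00689), H2-Aa at 7.09 (SE 1.13, adjusted p = 0.0119), H2-Eb1 at 6.25 (SE 1.21, adjusted p = 0.0258), H2-Ab1 at 6.03 (SE 1.19, adjusted p = 0.028) and H2-Ea-ps. H2-Aa, H2-Eb1 and H2-Ea-ps were under 1 FPKM in every EpiC culture and were tested because of the allografts, so this count is a description. Without EpiC allograft 4C the EpiC differences shrank to 5.80 for Cd74, 5.63 for H2-Aa, 4.65 for H2-Eb1 and 4.51 for H2-Ab1 and remained called. The EpiC calls numbered 2 without EpiC culture 1 or 2 and 3 without EpiC culture 3, and Cd74 and H2-Aa were among them each time. H2-Ab1 was also lost without EpiC allograft 5A (adjusted p = 0.0503).

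Levels of class II varied widely among the allografts. EpiC allograft 4C had the highest Cd74, H2-Aa, H2-Ab1, H2-Eb1, H2-Ea-ps and Ciita of all 10, and EpiC allograft 7B the lowest H2-Ab1 and H2-Aa. In 4C the dendritic markers summed to 51.6 FPKM, most of it Itgax, at 41.5 against 1.43 to 8.7 in the other 9. Clec10a (7.12), Clec9a (0.798) and Xcr1 (0.444) were also highest in 4C, but Flt3 (0.0944) and Zbtb46 (0.703) were lowest there. Cd209a and Ccr7 lay inside the range of the others. The macrophage markers of 4C summed to 3829 FPKM, the lowest of the 10. Whether 4C held more dendritic cells was not tested. The H2-K1 level of 4C, 239 FPKM, lay inside the range of the others. Across the 10 allografts, 10 relations were computed on log2(FPKM + 1), with 100000 permutations each and adjustment over the 10. H2-Aa went with Ciita (Pearson r = 0.904, permutation p = 0.00055, adjusted p = 0.00203; Spearman rho = 0.806, permutation p = 0.0077, adjusted p = 0.0192), and r was 0.817 without 6C and 4C, the allografts farthest from the median of H2-Aa. H2-Aa also went with Itgax (r = 0.912, permutation p = 0.00061, adjusted p = 0.00203; rho = 0.879, permutation p = 0.00174, adjusted p = 0.0087), with r = 0.742 without those allografts. H2-Aa and H2-Ea-ps gave r = 0.937 (permutation p = 0.00015, adjusted p = 0.0015) and rho = 0.855 (permutation p = 0.00299, adjusted p = 0.00997), and r = 0.856 without them. With the macrophage receptor Csf1r, H2-Aa gave r = 0.315 (permutation p = 0.371, adjusted p = 0.464) and rho = 0.661 (permutation p = 0.0441, adjusted p = 0.063), and r = 0.378 without the pair. Among the 7 CRC allografts alone, r was 0.703 with Ciita (exact permutation p = 0.046), 0.833 with H2-Ea-ps (exact p = 0.0204), 0.698 with Itgax (exact p = 0.0806) and 0.530 with Csf1r (exact p = 0.219). The 3 EpiC allografts were too few for a value of their own.

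Between the media, the cultures differed in a small class II signal. Of 28 members tested in the cultures with genotype in the model, 2 were higher and 7 lower in CRC than in EpiC, while 11.4% of 11837 genes were higher and 11.7% lower (limma). The share of members called lower was above the background and the share called higher below it. The median log2 difference was -0.70 over the members and 0.04 over all genes. H2-Ab1 was higher in every CRC culture (11.8, 9.04 and 9.26 FPKM) than in any EpiC culture (0.793, 1.76 and 0.985), by 2.36 (SE 0.25, adjusted p = 0.0118). Cd74 went the other way, at 1.04, 1.12 and 2.21 against 5.43, 2.3 and 5.9 FPKM, with a log2 difference of -1.13 (SE 0.27, adjusted p = 0.0484), and EpiC culture 2 exceeded the highest CRC culture only narrowly. H2-Eb1, at 1.36 (SE 0.39, adjusted p = 0.0701), did not pass the test. The ratio of H2-Ab1 to H2-Aa was 9.0 to 31.1 in the CRC and 1.85 to 4.24 in the EpiC cultures, compared with 0.716 to 1.01 in CRC allografts and 0.620 to 0.789 in EpiC allografts. The chains of I-A were thus at like levels in allografts, and unequal in CRC cultures. H2-Aa was at or under 1.03 FPKM in every culture, so the size of the culture ratios is uncertain. The calls in culture rest on few libraries: no member was called without CRC culture 1, CRC culture 2 or EpiC culture 2, and H2-Ab1 alone without EpiC culture 1, each fit having 1 CRC or EpiC library fewer. Without EpiC culture 3, the call for Cd74 was lost and 2 members were higher and 5 lower.

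Between the allografts of the media no member passed: 0 of 36 tested members were called by limma, where 0.00833% of 11999 genes were, and 1 member, Nlrc5 at -0.95, had an unadjusted p under 0.05. For class II the fitted differences were -0.97 (SE 0.94, adjusted p = 0.796) for Cd74 and -0.90 (SE 1.08, adjusted p = 0.841) for H2-Aa, and without EpiC allograft 4C they turned to 0.56 and 0.78, again not called. A miss does not show that the origins were alike, since 1 allograft set the sign.

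The classical class I genes were abundant in cultures already. H2-K1, the K heavy chain, was at 149, 212 and 206 FPKM in CRC cultures 1, 2 and 3 and 397, 208 and 92 in EpiC cultures 1, 2 and 3. It stood at 107 to 350.3 (median 186) FPKM in CRC allografts and 220.5, 239 and 627 in EpiC allografts 7B, 4C and 5A, so all 4 groups overlapped. Its log2 difference between allografts and cultures was 0.37 (SE 0.37, adjusted p = 0.468). H2-D1, the D heavy chain, was at 187, 106 and 48.2 FPKM in CRC cultures 1, 2 and 3 and 496, 230.2 and 40.8 in EpiC cultures 1, 2 and 3. CRC allografts held 129 to 691 (median 151) FPKM and the EpiC allografts 382, 202 and 894, with a log2 difference of 1.19 (SE 0.51, adjusted p = 0.0835). B2m, their shared light chain, was the most abundant member in every library except EpiC allograft 4C, where Cd74 exceeded it, at 1187, 1097 and 1668 FPKM in CRC cultures 1, 2 and 3 and 2016, 1558 and 1476 in EpiC cultures 1, 2 and 3. It was at 863 to 3441 (median 1475) FPKM in CRC allografts and 2128, 2044 and 4030.4 in EpiC allografts. The log2 difference of B2m was 0.50 (SE 0.28, adjusted p = 0.174). H2-L, which the b haplotype of C57BL/6 lacks, stayed at or under 0.465 FPKM. None of these passed between the media in culture either, at -0.07 (SE 0.52, adjusted p = 0.927) for H2-K1, -0.76 (SE 0.37, adjusted p = 0.186) for H2-D1 and -0.36 (SE 0.24, adjusted p = 0.301) for B2m.

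H2-K1 and H2-D1 did not keep a fixed proportion. H2-D1 was 0.234 to 1.25 times H2-K1 in the CRC cultures, 0.444 to 1.25 times in the EpiC cultures, 0.724 to 2.04 times in the CRC allografts and 0.848 to 1.73 times in the EpiC allografts. The lowest ratios were those of the Brca1hom cultures, CRC culture 3 (48.2 against 206 FPKM) and EpiC culture 3 (40.8 against 92). With 1 culture per genotype and medium this has no replicate. How reads shared by class I genes were divided is not given in the sources used here, so the ratio carries that uncertainty too.

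**Figure D2:**
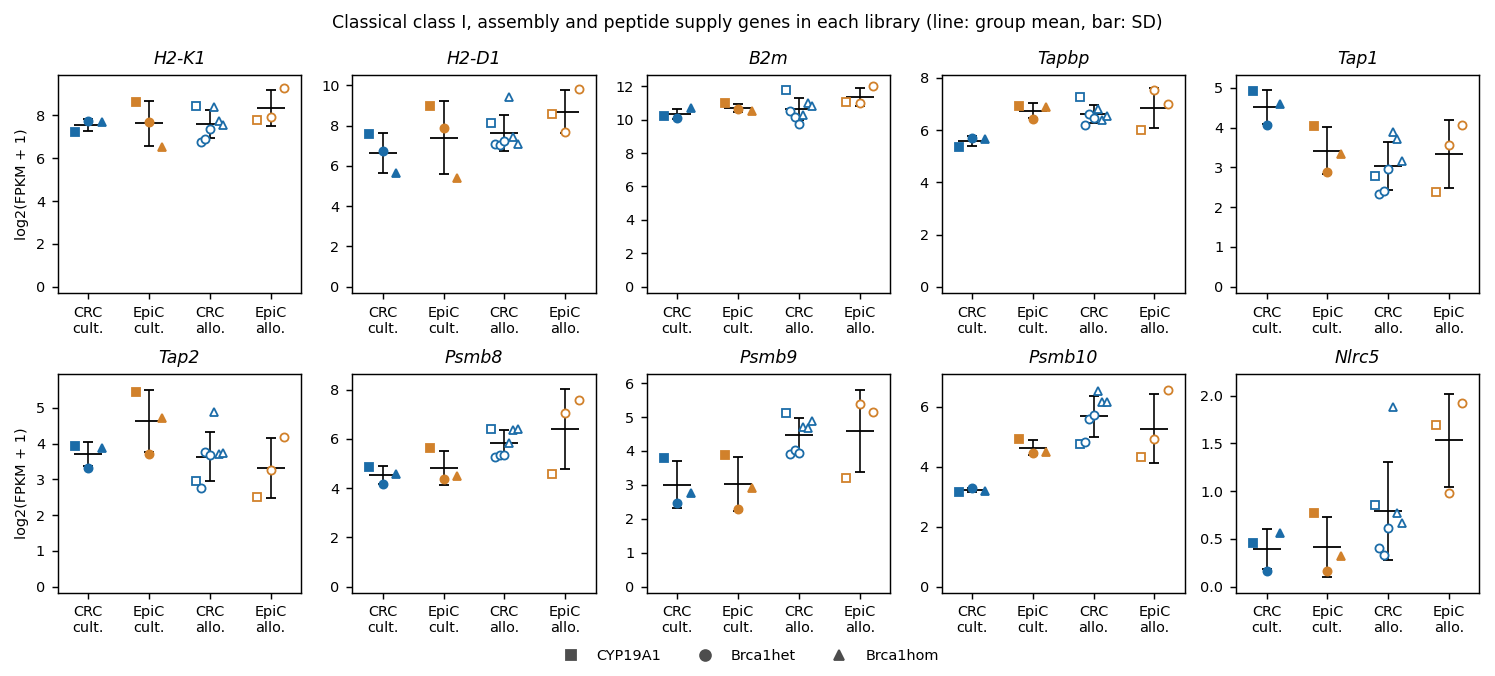
Levels of classical class I genes and of genes of class I assembly and peptide supply (FPKM, log scale) in each library of the first table, with the colours and symbols used for class II, lines for means and bars for SD. H2-K1, H2-D1 and B2m overlap across the 4 groups, Tap1 is highest on average in the CRC cultures, and Psmb10 is lowest in them.

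Of 7 tested genes of class I assembly and peptide supply, 3 rose in allografts and none fell (limma), and these 3 were the immunoproteasome subunits. Over all genes 18.2% rose and 16.4% fell. In CRC cells 4 of 7 rose and 1 fell, against 23.9% and 21.6% of all genes. In EpiC cells 0 of 8 were called by limma, with 2 at an unadjusted p under 0.05. Only 3.56% of all genes rose in EpiC cells, so 0 of 8 is near that share and sets no contrast with CRC cells. Psmb8 was at 28.3, 16.8 and 22.5 FPKM in CRC cultures 1, 2 and 3 and 48.6, 19.6 and 21.7 in EpiC cultures 1, 2 and 3, then 37.2 to 83.9 (median 55.5) FPKM in CRC and 22.5, 131 and 193 in EpiC allografts, a log2 difference of 1.45 (SE 0.42, adjusted p = 0.0149). Psmb9 was at 12.8, 4.52 and 5.79 FPKM in CRC cultures 1, 2 and 3 and 13.7, 3.87 and 6.48 in EpiC cultures 1, 2 and 3, then 14.2 to 33.4 (median 24.6) in CRC and 8.13, 40.7 and 34.7 in EpiC allografts, a log2 difference of 1.57 (SE 0.36, adjusted p = 0.00428). All CRC allografts lay above all CRC cultures for both subunits, while EpiC allograft 7B lay inside the range of the EpiC cultures. Psmb10 was at 7.97, 8.86 and 8.15 FPKM in CRC cultures 1, 2 and 3 and 29.6, 21.3 and 21.6 in EpiC cultures 1, 2 and 3, then 26.1 to 91.5 (median 52.6) in CRC and 19.1, 29.3 and 94.6 in EpiC allografts, a log2 difference of 1.70 (SE 0.37, adjusted p = 0.003). The call for Psmb8 was lost without CRC culture 2 (adjusted p = 0.0563). Psmb10 was also lower in every CRC culture than in any EpiC culture, with a log2 difference of -1.42 (SE 0.19, adjusted p = 0.0167), a call lost without CRC culture 1 or 2 or EpiC culture 1 or 2 (adjusted p up to 0.0959).

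Tap1, a subunit of the peptide transporter, was at 29, 15.7 and 23.2 FPKM in CRC cultures 1, 2 and 3 and 15.5, 6.32 and 9.18 in EpiC cultures 1, 2 and 3. It was at 4.06 to 13.8 (median 6.79) FPKM in CRC allografts and 4.21, 10.7 and 15.8 in EpiC allografts. It was the only called member that was higher in CRC than in EpiC cultures besides H2-Ab1, by 1.10 (SE 0.17, adjusted p = 0.0209), and the only one that fell from CRC cultures to CRC allografts, with a difference of -1.47 (SE 0.26, adjusted p = 0.00139). The culture call was lost without CRC culture 1 or 2 or EpiC culture 1 or 2 (adjusted p up to 0.13), whereas the fall in CRC cells was called in every alternative run. No CRC allograft reached the lowest CRC culture. Over all 16 libraries Tap1 had -0.85 (SE 0.36, adjusted p = 0.0819), and was called lower without EpiC culture 2, EpiC culture 3 or EpiC allograft 5A (adjusted p = 0.0448, 0.0412 and 0.0182). In EpiC cells the difference of Tap1 was -0.09 (SE 0.51, adjusted p = 0.946). Psmb9, which shares the start region with Tap1, rose over the same CRC libraries by 1.64 (SE 0.17, adjusted p = 5.63e-05).

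Tap2, the other subunit of the transporter, was at 14.3, 9.05 and 13.6 FPKM in CRC cultures 1, 2 and 3 and 42.9, 12.1 and 25.6 in EpiC cultures 1, 2 and 3, and at 5.75 to 28.5 (median 12) FPKM in CRC and 4.64, 8.59 and 17.1 in EpiC allografts. It was called in no comparison of the first table, with -0.92 (SE 0.26, adjusted p = 0.07) between the media in culture. Tapbp, tapasin, was at 39.6, 51.3 and 49.6 FPKM in CRC cultures 1, 2 and 3 and 121, 84 and 117 in EpiC cultures 1, 2 and 3, and at 72.5 to 153 (median 93.2) in CRC and 63.5, 186 and 127 in EpiC allografts. It was lower in CRC than in EpiC cultures, with -1.17 (SE 0.22, adjusted p = 0.0315), and rose from CRC cultures to CRC allografts by 1.10 (SE 0.23, adjusted p = 0.00391). The culture call for Tapbp was lost when any 1 of the 6 cultures was left out (adjusted p up to 0.0993). Nlrc5, the class I activator, was low throughout, at 0.371, 0.118 and 0.476 FPKM in CRC cultures 1, 2 and 3 and 0.706, 0.119 and 0.25 in EpiC cultures 1, 2 and 3, 0.261 to 2.69 (median 0.583) in CRC allografts and 2.23, 0.974 and 2.79 in EpiC allografts 7B, 4C and 5A. Across the 10 allografts H2-K1 went with Nlrc5 (r = 0.803, permutation p = 0.00443, adjusted p = 0.0111; rho = 0.903, permutation p = 0.00077, adjusted p = 0.0077), with r = 0.663 without 10B and 5A, the farthest in H2-K1, and r = 0.788 in the 7 CRC allografts (exact permutation p = 0.00536). H2-K1 and H2-Aa gave r = 0.203 (permutation p = 0.567, adjusted p = 0.567) and rho = 0.467 (permutation p = 0.18, adjusted p = 0.2). Without 10B and 5A this r was 0.286, and in the 7 CRC allografts 0.527 (exact permutation p = 0.229).

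Among the 28 nonclassical class I genes, which show few or no classical peptides and serve innate-like T cells and NK receptors, the calls between media in culture were all H2-T genes. In culture 4 of 11 tested members of this class were lower in CRC than in EpiC (H2-T9, H2-T10, H2-T22 and H2-T23) and none was higher. Over all 11837 genes 11.7% were lower and 11.4% higher, so finding none higher is near the background. H2-T23, which encodes Qa-1 and presents leader peptides to the NK receptor CD94-NKG2A, was at 2.85, 5.85 and 7.1 FPKM in CRC cultures 1, 2 and 3 and 27.3, 19.4 and 20.8 in EpiC cultures 1, 2 and 3. It was at 12.9 to 24.4 (median 18.8) FPKM in CRC and 10.1, 15.5 and 19.8 in EpiC allografts 7B, 4C and 5A. The cultures did not overlap, with a log2 difference of -1.96 (SE 0.34, adjusted p = 0.0261), and the EpiC cultures lay at or above most allografts. H2-T22, a ligand of some gamma delta T cells, was at 1.78, 1.2 and 0.566 FPKM in CRC cultures 1, 2 and 3 and 4.2, 7.86 and 12.9 in EpiC cultures 1, 2 and 3, and at 3.12 to 6.56 (median 5.21) in CRC and 3.18, 4.72 and 5.25 in EpiC allografts, with a culture difference of -2.02 (SE 0.47, adjusted p = 0.0454). H2-T10, its close relative, was at 9.81, 8.75 and 8.08 FPKM in CRC cultures 1, 2 and 3 and 21.4, 29.6 and 50.7 in EpiC cultures 1, 2 and 3, and at 7.77 to 19 (median 9.29) in CRC and 7.24, 10.3 and 16.6 in EpiC allografts, with -1.74 (SE 0.32, adjusted p = 0.029) between cultures. H2-T9 was at 1.49, 1.54 and 3.12 FPKM in CRC cultures 1, 2 and 3 and 6.11, 6.35 and 8.34 in EpiC cultures 1, 2 and 3, and at 3.5 to 7.94 (median 5.52) in CRC and 2.62, 7.61 and 9.02 in EpiC allografts, with -1.41 (SE 0.19, adjusted p = 0.0163). For each of the 4 genes every CRC culture lay below every EpiC culture, but none of the 4 was called without CRC culture 1 or 2 or EpiC culture 1 or 2. H2-T9, H2-T10 and H2-T22 are similar in sequence, so reads may have been shared among them and their calls may not be separate.

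The medium difference seen in culture was not carried into the allografts for most of these genes. The interaction of medium and state, the CRC minus EpiC difference in allografts less that in cultures, was higher for 4 of 33 tested members and lower for 0, against 6.35% of 12325 genes higher (limma; 8 members had an unadjusted p under 0.05). The median over the members was 0.64, against -0.01 over all genes. The 4 were H2-T22 at 2.22 (SE 0.43, adjusted p = 0.00391), H2-T23 at 2.16 (SE 0.41, adjusted p = 0.0035), H2-T10 at 1.83 (SE 0.48, adjusted p = 0.0247) and H2-T24 at 1.54 (SE 0.44, adjusted p = 0.0368). H2-T24 was at 0, 0.0838 and 0 FPKM in CRC cultures 1, 2 and 3 and 1.29, 0.692 and 1.31 in EpiC cultures 1, 2 and 3. It was at 1.95 to 4.72 (median 2.86) FPKM in CRC and 1.17, 3.85 and 1.22 in EpiC allografts. It reached the filter of 1 FPKM through the allografts, so its call describes the difference and is no support for it. H2-T23 rose from CRC cultures to CRC allografts by 1.61 (SE 0.24, adjusted p = 0.000576) and H2-T22 by 1.53 (SE 0.24, adjusted p = 0.000652), whereas in EpiC cells the differences were -0.58 (SE 0.33, adjusted p = 0.362) and -0.70 (SE 0.42, adjusted p = 0.381). H2-T22 and H2-T23 were called in every alternative run, H2-T10 was lost in 4 of 21 (without CRC culture 2 or 3 or EpiC allograft 7B or 4C; adjusted p up to 0.0926) and H2-T24 in 11 of 20, each leaving out 1 library (adjusted p up to 0.101). The count was 2 without CRC culture 2, CRC culture 3 or EpiC allograft 7B, and without EpiC allograft 7B 4 members were called lower, among them H2-Ab1 (-4.21, adjusted p = 0.0384) and Tap1 (-2.33, adjusted p = 0.00732). The fibroblast markers moved in the same way as the H2-T genes, with 5 of 6 lower in CRC than in EpiC cultures (median log2 difference -6.29) and 5 of 6 higher in the interaction (median 6.96). Col1a1, a collagen chain, was at 5.33, 6.42 and 6.79 FPKM in the CRC cultures and 1436, 657 and 987 in the EpiC cultures. Their part in the result was not tested.

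**Figure D3:**
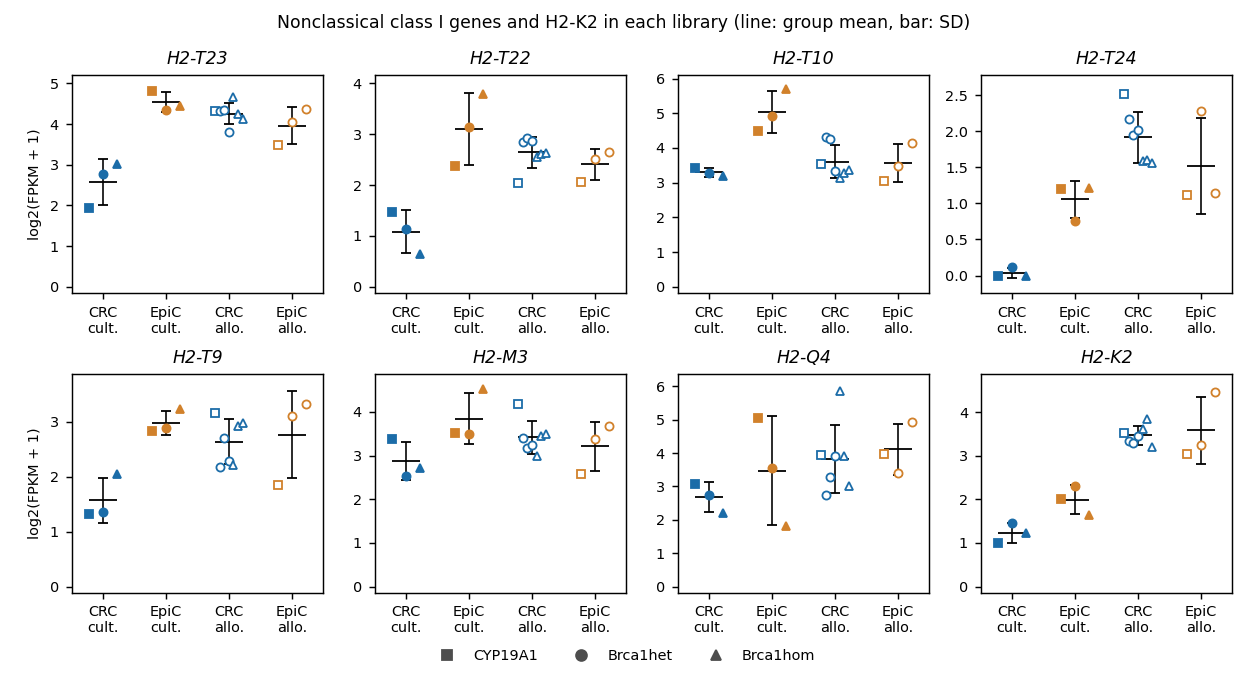
Levels of H2-T and other nonclassical class I genes, and of the unclassified H2-K2 (FPKM, log scale), in each library of the first table. Colours and symbols are those used for class II, lines are means and bars SD. For H2-T9, H2-T10, H2-T22 and H2-T23 the 3 CRC cultures lie below the 3 EpiC cultures, and the CRC and EpiC allografts overlap.

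For the nonclassical genes H2-M3, H2-Q4, H2-Q2 and H2-Q10, the allografts overlapped the cultures of the same medium. H2-M3, which presents formylated peptides, was at 9.35, 4.77 and 5.59 FPKM in CRC cultures 1, 2 and 3 and 10.5, 10.3 and 22 in EpiC cultures 1, 2 and 3, lower in every CRC than in any EpiC culture but not past the test (limma, adjusted p = 0.111). It was at 6.93 to 17 (median 9.64) FPKM in CRC and 4.99, 9.35 and 11.7 in EpiC allografts, and rose in CRC cells by 0.70 (SE 0.17, adjusted p = 0.00916), a call lost without CRC culture 2 or without genotype in the model (adjusted p up to 0.108). H2-Q4 was at 7.42, 5.72 and 3.57 FPKM in CRC cultures 1, 2 and 3 and 32.3, 10.7 and 2.53 in EpiC cultures 1, 2 and 3, then 5.73 to 56.8 (median 14) in CRC and 14.8, 9.65 and 29.6 in EpiC allografts. H2-Q2 stood at 5.92, 3.41 and 0.554 FPKM in CRC cultures 1, 2 and 3 and 13.7, 4.95 and 1.02 in EpiC cultures 1, 2 and 3, with 3.21 to 18.8 (median 4.42) in CRC and 2.42, 2.69 and 7.93 in EpiC allografts. H2-Q10 stood at 3.64, 2.98 and 3.8 FPKM in CRC cultures 1, 2 and 3 and 8.44, 5.16 and 2.89 in EpiC cultures 1, 2 and 3, with 0.994 to 19.8 (median 5.78) in CRC and 1.96, 2.7 and 10.4 in EpiC allografts. For these 3 H2-Q genes the highest library was CRC allograft 1. Of the weaker members, H2-Q6 rose in allografts by 1.53 (SE 0.34, adjusted p = 0.00295) and H2-T24 by 1.27 (SE 0.29, adjusted p = 0.00428). Both reached the filter of 1 FPKM through the allografts, so these values describe the difference and are no support for it. H2-Q7, H2-Q8 and H2-Q9 ranged from 0 or near 0 up to 8.77, 6.94 and 2.16 FPKM within groups. The H2-Q genes are a family of related copies, and how reads shared among them were divided is not given in the sources used here, so their separate values are uncertain.

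H2-K2, the unclassified member, was at 0.987, 1.76 and 1.34 FPKM in CRC cultures 1, 2 and 3 and 3.02, 3.98 and 2.14 in EpiC cultures 1, 2 and 3, with 8.24 to 13.4 (median 10.03) FPKM in CRC and 7.26, 8.48 and 21 in EpiC allografts. Every allograft lay above every culture and the log2 difference was 1.93 (SE 0.23, adjusted p = 1.88e-05). The non-presentation genes of the region, H2-Ke2 (66.2 to 166 FPKM in cultures, 40.2 to 189 in allografts) and H2-Ke6 (5.05 to 15.1 and 7.06 to 17.8), passed the test in neither direction, at 0.01 (SE 0.33, adjusted p = 0.978) and 0.31 (SE 0.27, adjusted p = 0.382).

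**Figure D4:**
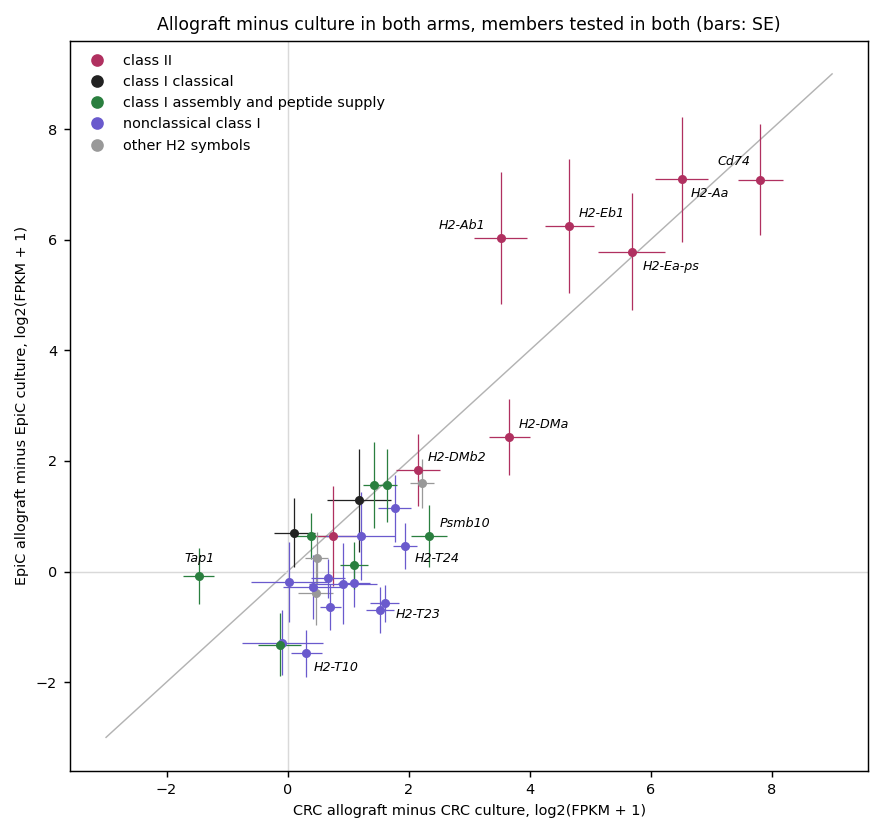
Difference between allografts and cultures (log2 scale of FPKM + 1) in CRC cells on the horizontal axis and in EpiC cells on the vertical axis for 33 tested members, with bars of 1 SE; the line marks equal differences. Cd74, H2-Aa, H2-Ab1, H2-Eb1 and H2-Ea-ps lie at the upper right, Tap1 lies below 0 for CRC cells, and H2-T22 and H2-T23 are above 0 in CRC and below 0 in EpiC cells.

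Genotype was compared within the allografts. Between the 3 Brca1hom and the 3 Brca1het CRC allografts, 0 of 35 tested members were called by limma, as were 0% of 11928 genes, while 12 of the 35 members and 1246 of all genes had an unadjusted p under 0.05. The median log2 difference was 0.75 over the members and -0.01 over all genes. Of the 12, 10 were higher in Brca1hom, among them Cd74 (1.57), H2-Eb1 (1.55), H2-Aa (1.37), Tap1 (1.02) and H2-K1 (0.90), and H2-T10 and H2-T24 were lower. The adjusted p of the 12 lay between 0.301 and 0.476. H2-Aa was at 70.1, 103 and 49.5 FPKM in Brca1het allografts 10B, 10C and 11C and at 107, 186 and 319 in Brca1hom allografts 1, 2 and 12, without overlap. Macrophage markers moved the same way: the 13 summed to 3996, 5049 and 4168 FPKM in these Brca1het and 6415, 8764 and 8643 in these Brca1hom allografts, also without overlap, with a median log2 difference of 0.90 and 0 called. Their part in the difference was not tested. Allografts 10B and 10C share a number in their labels. Between CYP19A1 and Brca1het allografts, 0 of 33 tested members and 0% of 11965 genes were called by limma, with an unadjusted p under 0.05 for 1 member, H2-T22 (-0.69), and 960 of all genes.

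Other genes of the pathway, not members, are given as counts, beside the 18.2% of all genes that rose in allografts and the 16.4% that fell. Of 7 genes that process antigen for class II, 5 rose in allografts and none fell (limma), led by the cathepsin Ctss at 9.56 (SE 0.26, adjusted p = 3.89e-12), the legumain Lgmn (2.88) and the ubiquitin ligase March1 (2.61). Of 12 regulators of MHC genes, 6 rose, led by the myeloid factors Spi1 (5.004) and Irf8 (4.18) and by Nfya (0.99), and Nfyb fell (-0.91). Of 10 genes that fold, load or trim class I peptides, 1 rose, the proteasome activator Psme1 (0.80). Of 6 co-stimulation and checkpoint genes, 4 of 5 tested rose, led by Cd86 at 3.91. Of 9 tested genes of the interferon gamma pathway, 3 rose (Gbp2 at 2.03, Gbp3 at 1.55 and Ifngr1 at 1.21) and Jak2 fell (-1.001), and Ifng itself stayed at or under 0.108 FPKM. Of 4 MHC-like genes outside the region, 2 of 3 tested rose. The count for class I loading and trimming was below the share of all genes, and lists this short give no firm share.

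In culture, the same lists moved in mixed directions, beside 11.4% of all genes that were higher in CRC and 11.7% that were lower. The 10 class I loading and trimming genes had 1 call each way, near those shares. The shorter lists give no firm share. Among the 9 tested genes of the interferon gamma pathway, those lower in CRC were Ifngr2 (-2.40), Socs1 (-1.93) and Jak2 (-0.76). Of 10 class I loading and trimming genes, Erap1 was higher (0.97) and Psmb5, the constitutive subunit that Psmb8 replaces, was lower (-0.78). Of the 3 tested MHC-like genes, 2 were lower in CRC, the Fc receptor Fcgrt (-4.55) and Cd1d1 (-1.28). Fcgrt was at 1.16, 1.24 and 2.97 FPKM in CRC cultures 1, 2 and 3. In EpiC cultures 1, 2 and 3 it was at 48.6, 51.9 and 92.6. Of the 2 tested co-stimulation genes, Cd80 was higher (2.76). Of the 5 tested class II processing genes, 2 were lower in CRC and none higher.

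In the second table, which was normalised apart, the summed class II signal was higher in both primary cancers than in the 4 cultures grown from them. Cd74, H2-Aa and H2-Eb1 were at or under 4.65 FPKM in all 4 cultures. H2-DMb1 was still at 16.9 in the CRC and 15.8 in the EpiC culture of cancer 1. Class II members summed to 693.5 and 1265 FPKM in the cancers, 11.9 and 34.4 in the CRC cultures and 7.64 and 25.1 in the EpiC cultures. Against the cancers, 4 of 32 tested members were lower in CRC cultures, where 0.473% of 12266 genes were lower, and 4 were lower in EpiC cultures, where 0.424% were (limma, all 6 libraries in 1 model). No tested member was called higher in either comparison, and 7 and 6 members had an unadjusted p under 0.05. The median log2 difference of the members was -0.74 for CRC and -0.82 for EpiC, against -0.06 and 0.08 over all genes. The comparisons share the same 2 cancers, so their values are not independent. H2-Aa and H2-Eb1, both among the 4, were under 1 FPKM in every culture and passed the filter through the cancers, so the counts and medians are a description and nothing is read from their distance to the background.

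Cd74 was at 671 and 359 FPKM in primary cancers 1 and 2, 0.78 and 1.5 in their CRC cultures and 4.65 and 2.05 in their EpiC cultures. The log2 differences were -7.86 (SE 0.60, adjusted p = 0.00672) for CRC and -6.89 (SE 0.60, adjusted p = 0.00911) for EpiC. H2-Aa was at 167 and 93.7 in the cancers, 0.251 and 0.323 in the CRC and 0.114 and 0.0887 in the EpiC cultures, with differences of -6.61 (SE 0.57, adjusted p = 0.0079) and -6.84 (SE 0.57, adjusted p = 0.00718). Both genes were higher in each cancer than in any culture. H2-Eb1 was at 148 and 80.2 in the cancers, 0.173 and 0.653 in the CRC and 0.168 and 0.0698 in the EpiC cultures, with differences of -6.30 (SE 0.59, adjusted p = 0.0088) and -6.62 (SE 0.59, adjusted p = 0.00911). H2-Ab1 kept a residue in the CRC cultures, at 199 and 125, then 9.76 and 4.71, then 0.995 and 0.362 in cancers, CRC and EpiC cultures, with differences of -4.34 (SE 0.60, adjusted p = 0.033) and -6.59 (SE 0.60, adjusted p = 0.00911). The ratio of H2-Ab1 to H2-Aa was 1.19 and 1.33 in the cancers, 14.6 and 38.9 in the CRC cultures and 4.08 and 8.75 in the EpiC cultures. As in the first table, the I-A chains were near parity in tissue and unequal in culture. H2-Aa was under 1 FPKM in every culture here, and in the EpiC cultures H2-Ab1 was too. The culture ratios therefore rest on values near the floor. H2-Ab1 was lost for CRC in 7 of 12 alternatives (adjusted p up to 0.154). All 4 calls for CRC were lost without cancer EpiC culture 1, and all 4 for EpiC without cancer EpiC culture 1 or 2, fits that leave few residual degrees of freedom.

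The other class II genes were not called, or were too low to be tested, as Ciita was. On the log2 scale of FPKM + 1, the change of such low genes is understated. H2-DMa was at 18.4 and 15.5, then 5.87 and 2.17, then 2.06 and 1.53 FPKM in cancers, CRC and EpiC cultures, and H2-DMb1 at 50.9 and 15, then 16.9 and 2.4, then 15.8 and 3.22. Neither was called; in H2-DMb1 the first cancer and both of its cultures were above the second cancer. H2-DMb2 was at 7.23 and 4.09, then 0.497 and 0.0685, then 1.27 and 0.132, and Ciita at 0.96 and 0.725, then 0.141 and 0.00815, then 0 and 0.0889. H2-Ea-ps was listed at 0 in all 6 libraries, the cancers included, whereas it carried signal in all 10 allografts; the cancers arose in C57Bl/6 females and had no other host. Of 3508 genes at or above 10 FPKM throughout the first table, 6 had a listed 0 somewhere in the second and 3 had it in all 6 libraries, so a 0 in the second table may be a missing estimate. The macrophage markers summed to 1277 and 1459 FPKM in the cancers and 70.3 to 234 in the cultures, with 6 and 5 of 13 called lower in CRC and EpiC cultures. Dendritic markers summed to 9.06 and 10.4 in the cancers and at most 1.46 in the cultures. Their part in the fall was not tested. Of the class II processing genes, 1 of 7 was lower in each comparison, Ctss at -7.50 and -7.80.

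**Figure D5:**
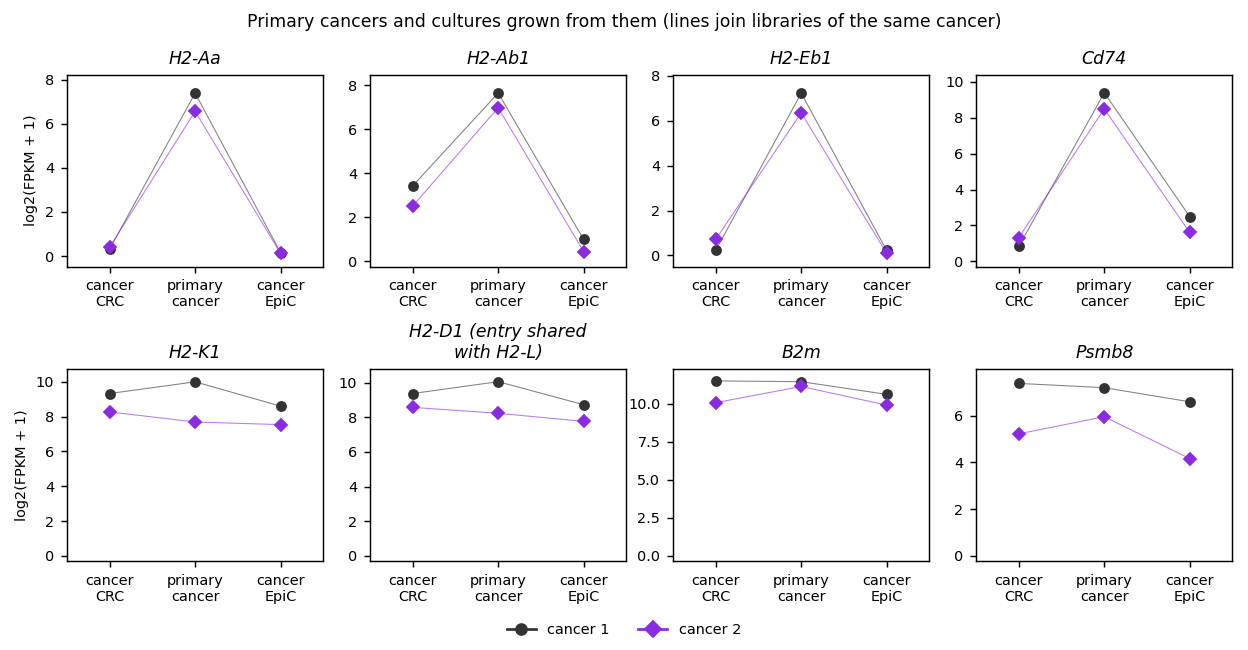
Levels of class II and class I members (FPKM, log scale) in the second table for primary cancers and the CRC and EpiC cultures grown from them; lines join the libraries of 1 cancer. Cd74, H2-Aa, H2-Ab1 and H2-Eb1 drop from cancer to culture in both cancers, while for H2-K1 and B2m cancers and cultures overlap.

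No class I gene passed the test between cancers and cultures. H2-K1 was at 1025 and 206 FPKM in primary cancers 1 and 2, 643 and 308 in the CRC and 389 and 185 in the EpiC cultures. The entry that joins H2-D1, H2-L and LOC547349 was at 1065 and 300.2, then 663 and 379.9, then 423 and 217. B2m was at 2813 and 2259, then 2915 and 1079, then 1577 and 964. In these genes the libraries of cancer 1 lay above those of cancer 2 within every group. Cancer 1 was likewise ahead of cancer 2 for Psmb8 (145 and 60.9 in the cancers, 165 and 36.3 in CRC and 95.4 and 16.9 in EpiC cultures) and Psmb9 (51 and 18.3, then 32.8 and 11.3, then 27.5 and 9.6). The same held for Tap1 (37.4 and 13.6, then 35.1 and 9.1, then 22.9 and 9.04), Tap2 (73.1 and 14.4, then 40.1 and 11.3, then 33 and 10.8) and Nlrc5 (4.67 and 2.37, then 7.78 and 0.171, then 4.85 and 0.247). The difference between the cancers was not tested. Tapbp was closer between the cancers, at 103 and 73.8, then 129.7 and 75.7, then 80.3 and 79.1. Psmb10 did not follow this order, at 33.1 and 34.5, then 25.5 and 74.8, then 30.6 and 27.7. For Psmb10 the CRC culture of the second cancer was the highest library.

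Among the nonclassical genes of this table, H2-Q4 was at 108 and 34.2 FPKM in the cancers, 61.7 and 13.4 in CRC and 53.3 and 21.3 in EpiC cultures. H2-Q7 was at 54.1 and 6.77, then 33.7 and 3.17, then 24.3 and 3.03, H2-Q8 at 33.4 and 6.74, then 25.1 and 0.0513, then 24.2 and 1.05, and H2-Q5 at 17.4 and 5.66, then 18.8 and 0.408, then 16.1 and 1.78. These 4 followed cancer 1 over cancer 2 as the classical genes did. H2-Q2 was at 31.3 and 10.5, then 11.6 and 1.6, then 14.5 and 6.77, and H2-Q10 at 12.6 and 7.01, then 15.4 and 1.22, then 9.27 and 3.77. In the H2-T genes the CRC cultures were not both below the EpiC cultures, unlike in the first table: H2-T23 was at 20.9 and 5.88, then 15.6 and 4.15, then 8.22 and 13.9, H2-T10 at 17.7 and 10.2, then 15.9 and 12.4, then 11.8 and 8.21, and the joint entry of H2-T22 and H2-T9 at 10.2 and 8.36, then 11.1 and 1.11, then 8.2 and 4.69. H2-M3 was at 20.002 and 9.78, then 16.3 and 4.01, then 22.2 and 13.9. The non-presentation genes H2-Ke2 (110.4 and 32.2, then 105 and 545, then 95.2 and 89) and H2-Ke6 (21.1 and 3.5, then 6.38 and 35.5, then 7.64 and 19.1) were highest in cancer CRC culture 2, whose FPKM sum was also the highest of the table. In these cultures the fibroblast markers summed to 6.19 and 17.9 FPKM in CRC and 3.05 and 6.11 in EpiC.

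Between the CRC and EpiC cultures of the cancers, 0 of 32 tested members were called by limma, where 0.00815% of 12266 genes were, and 1 member had an unadjusted p under 0.05. That was H2-Ab1, at 2.25 (SE 0.60, adjusted p = 1), the gene that also stood higher in CRC than in EpiC cultures of the first table. Tap1, the other gene higher in CRC there, differed by 0.30 (SE 0.85, adjusted p = 1), and H2-T23 by -0.34 (SE 0.83, adjusted p = 1). With 2 cultures a side, such values leave wide intervals.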

How the data were processed

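Gene expression was measured by paired-end sequencing of polyadenylated RNA (TruSeq libraries, Illumina HiSeq) in 22 libraries, per the labels' protocols. The deposited FPKM values are the authors'; FastQC, Trim Galore, TopHat and Cufflinks with build mm9 are named in the submitters' processing notes, without versions. Annotation, filters and the strandedness of counting have no statement in the sources used here. The 2 tables were normalised separately, so tests were made within 1 table. In the second table, 407 of 23735 entries shared a symbol and were summed. There, 51.5% of values above 0 carried over 6 digits, of which 97.2% ended in 5, the form of a mean of a pair of values; 0% of the first table's values did. Whether runs were averaged is not stated.

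Groups came from the sample titles. Tests used limma 3.58.1 in R 4.3.3 (functions lmFit and eBayes, trend on), with log2(FPKM + 1) as the response, for all genes averaging 1 FPKM or more over a fit's libraries, with Benjamini-Hochberg adjustment over all genes tested and a threshold of 0.05. Differences on this scale understate those of low genes. Genotype was a covariate for medium in cultures and in allografts and for state in CRC cells. State over all 16 libraries also had medium, and the interaction was added to that model. The EpiC state fit and the Brca1 fit had no covariate, and the CYP19A1 fit had medium. In the second table all 6 libraries shared 1 model. Residual degrees of freedom were 2 to 11. The scripts were tested on simulated data. No 2 libraries held identical values. Read depth and its counting error are unknown from FPKM, so no interval or detection limit is given.

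Members and gene lists were chosen with earlier results of these data known. Named with values were the classical class I genes, the class I supply genes, Cd74, Ciita, H2-Aa, H2-Ab1, H2-Eb1, the H2-DM genes and any member averaging 5 FPKM or more; others are given by range or were named after their values were seen (H2-T22, H2-T24, H2-Q6, H2-K2 where below that mean, and the H2-Q and H2-O genes). Titles tie cancers 1 and 2 to their cultures, so the second table is paired. Deviations of same-numbered libraries correlated at -0.0555, -0.113 and 0.242 across genes. The alternatives tried were rescaling by median ratios, dropping the filter or raising it to 5 FPKM, a pseudocount of 0.1, leaving out each library in turn, genotype left out, Brca1het allografts alone, allografts 10B and 10C as 1 sample, the replicate block and averaging of entries with 1 symbol. Promoters were searched with Python 3.11.15 in RefSeq sequence of GRCm38.p6. Some genes of the lists are not reported here by name.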

Additional observations from a re-analysis of the deposited data

Results flagged for a closer look

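CRC allograft 1, a Brca1hom allograft, lay apart from the other 6 CRC allografts in 8 class I members: the gap to the nearest library, as a share of the group's range, passed Dixon's critical value for 7 samples. H2-D1 was at 691 FPKM there, against 129 to 280.5 in the others. H2-Q4 was at 56.8 against 5.73 to 14.4, H2-Q2 at 18.8 against 3.21 to 6.87 and H2-Q10 at 19.8 against 0.994 to 7.95. H2-Bl was at 9.55 against 0.291 to 0.834, H2-Q8 at 6.94 against 0.000217 to 2.22 and H2-Q1 at 3.57 against 1.05 to 2.07. Tap2 was at 28.5 against 5.75 to 12.5. In CRC allograft 6C, H2-M3 was at 17.0 FPKM against 6.93 to 10.3. In all, 35 members were examined in this group, and chance flags about 1 in 20 where values are normally distributed. FPKM were used here without a log scale, so that rate may not hold. Reads may be shared among H2-D1 and the H2-Q genes, so their flags may not be separate.

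The difference between CRC and EpiC cells differed between allografts and cultures, by the interaction test of limma, for H2-T22 (2.22, adjusted p = 0.00391), H2-T23 (2.16, adjusted p = 0.0035), H2-T10 (1.83, adjusted p = 0.0247) and H2-T24 (1.54, adjusted p = 0.0368), on the log2 scale. H2-T24 reached the filter of 1 FPKM through the allografts, so its value is a description only.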

How the results depend on the processing

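Of the results for single members, 4850 kept their side of the threshold under an alternative, 97 lost a call and 32 gained one. The sign changed in 296, of which 0 were called before or after the change. For the medium in culture, members called lower numbered 7, but 4 without the filter and 4 with the filter at 5 FPKM. Leaving out 1 culture gave 0 to 2 higher and 0 to 5 lower. For state over all libraries, members called lower numbered 0, and 1 (Tap1) without genotype in the model; leaving out 1 library gave 12 to 16 higher and 0 to 1 lower. For the interaction, members called higher numbered 4, and 2 with the filter at 5 FPKM; leaving out 1 library gave 2 to 5 higher and 0 to 4 lower. For EpiC state, members called higher numbered 5, and 2 without the filter; leaving out 1 library gave 2 to 7 higher and 0 to 1 lower. For the cancers, leaving out 1 library gave 0 to 3 lower in CRC cultures and 0 to 4 in EpiC cultures. With the replicate block, the pairing of cultures with their cancer, 4 members were called lower in CRC cultures, 4 in EpiC cultures and 0 between them, and no member's call changed. The cause of these changes was not tested, beyond the fewer samples or genes of each fit. Depth limits the low members in a way FPKM do not show.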
